A study of Mus musculus with 576 samples.

Results

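The transcripts described here come from 9 genes of the embryonic pancreatic epithelium, Pdx1, Ptf1a, Sox9, Nkx6-1, Onecut1, Gata4, Foxa2, Mnx1 and Spp1, out of 36658 in each count table. They were chosen by symbol as regulators of pancreatic progenitors and of the duct trunk. They were read in single cells of the mouse dorsal pancreas at E12.5, sorted as GFP+ and sequenced by Smart-seq2, a full-length method that does not mark the strand. The cells came from 3 mouse lines on C57BL/6J, with both sexes mixed. Embryos of the first line were Nkx2.5-Cre;R26mTmG and those of the next were Nkx3.2-Cre;R26mTmG, in which GFP marks cells that expressed the Cre driver and all of their descendants. Prox1-GFP embryos carry a BAC transgene, so GFP follows the Prox1 promoter directly, without a Cre step. Each line filled 2 plates of 96 wells. The labels name no embryo, so the cells of a line were treated as 1 sample and no test was run, and intervals cover counting error only. Libraries of the Prox1-GFP line carry numbers far from those of the Cre lines, so batch and line cannot be told apart.

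The pancreatic bud grows as an epithelium of multipotent progenitors that carry Pdx1, Ptf1a, Sox9 and Nkx6-1 together. These cells later part into tips, which express Cpa1 and give rise to acinar cells, and a trunk, which gives rise to ducts and, through Neurog3, to endocrine cells. In textbook accounts Ptf1a is kept in the tip and Nkx6-1 and Sox9 in the trunk, and Ptf1a and Nkx6-1 oppose each other.

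After the study's filters, 549 of 576 cells were kept, with 224817 to 1512701 counts each. Levels are given in CPM, counts scaled to a total of 1000000 in the cell or group. In the Prox1-GFP line, 59 cells on plate 8A and 49 on plate 8B had Epcam at 20 CPM or more and are called Epcam+ cells. The nearest cells on either side of that limit were at 3.67 and 30.3 CPM. A further 75 Prox1-GFP cells carried mesenchymal markers (at least 2 of Col1a1, Col1a2, Col3a1, Pdgfra and Pdgfrb at 20 CPM or more). So did 89 and 77 cells on the plates of Nkx3.2-Cre and 88 and 81 on those of Nkx2.5-Cre, and these form the mesenchyme of each line. Mesothelium-like cells, with at least 2 of 4 mesothelial genes at 20 CPM or more, were left out. They were 18 cells of Nkx3.2-Cre and 4 of Nkx2.5-Cre. Also left out were 7 Nkx3.2-Cre cells with Epcam at 20 CPM or more. Cdh1, a defining epithelial marker, stood at 320 CPM in Epcam+ cells and 0.0175 CPM in Prox1-GFP mesenchyme. Vim and Twist1, mesenchymal markers that the choice of cells had not used, stood at 176.9 and 0.132 CPM in Epcam+ cells and at 460 and 7.10 CPM in the mesenchyme. All 6 epithelial markers stood above 1 CPM in Epcam+ cells, and 7 of these cells also carried mesenchymal markers. Prox1 itself stood at 1419 CPM in Epcam+ cells and 185.5 CPM in the mesenchyme of the same line. No pair of cells held identical counts.

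Coordinates are those of GRCm38, and each range spans the whole gene with its exons, introns and UTRs. Reads were assigned to transcripts and summed to genes, so the values below cannot be placed within a gene. Pdx1 (ENSMUSG00000029644), the homeodomain factor without which no pancreas forms, lies at chr5:147269959-147275848 on the plus strand. Chromosome 5 also holds Nkx6-1 (ENSMUSG00000035187; chr5:101658139-101664996, minus), a homeodomain factor of the trunk and later of beta cells. It holds Mnx1 (ENSMUSG00000001566; chr5:29473034-29478470, minus), a homeodomain factor that the dorsal bud needs. It also holds Spp1 (ENSMUSG00000029304; chr5:104435118-104441050, plus), which codes for osteopontin, a secreted phosphoprotein and duct marker. On chromosome 2 are Ptf1a (ENSMUSG00000026735; chr2:19445663-19447501, plus), a bHLH factor of progenitors and acinar cells, and Foxa2 (ENSMUSG00000037025; chr2:148042877-148046969, minus), a forkhead factor of all gut endoderm. Sox9 (ENSMUSG00000000567; chr11:112782224-112787760, plus) is an HMG-box factor that keeps progenitors and ducts. Onecut1 (ENSMUSG00000043013; chr9:74861921-74891781, plus), also called Hnf6, acts in duct and endocrine development. Gata4 (ENSMUSG00000021944; chr14:63198922-63271692, minus) is a zinc finger factor of early progenitors and tips. The antisense gene Ptf1aos and 3 other genes that overlap members have no row in the tables, and their reads cannot be told apart from those of the member.

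RefSeq gave promoters for 7 of the 9 genes. The 250 bases before the start are printed 5′ to 3′ on the strand of the gene for 4 of them: Spp1 and Foxa2, which were lower and higher in the endocrine-like cells described below, and Onecut1 and Ptf1a, which were found in at most 2 of those 19 cells (GRCm38.p6; Spp1 chr5:104434861-104435110, plus; Foxa2 chr2:148046970-148047219, minus; Onecut1 chr9:74861671-74861920, plus; Ptf1a chr2:19445413-19445662, plus). Capitals mark matches, on either strand, to 1 of 6 short motifs of the families the members belong to.
Spp1: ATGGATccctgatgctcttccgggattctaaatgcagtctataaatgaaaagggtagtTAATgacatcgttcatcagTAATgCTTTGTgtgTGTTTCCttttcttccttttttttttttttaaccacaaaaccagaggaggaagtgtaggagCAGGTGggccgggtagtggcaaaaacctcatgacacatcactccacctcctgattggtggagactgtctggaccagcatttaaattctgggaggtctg
Foxa2: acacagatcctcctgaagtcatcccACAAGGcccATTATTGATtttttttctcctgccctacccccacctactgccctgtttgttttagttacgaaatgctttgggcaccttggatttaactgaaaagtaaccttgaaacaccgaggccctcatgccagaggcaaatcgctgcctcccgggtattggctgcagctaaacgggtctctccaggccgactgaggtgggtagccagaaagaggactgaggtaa
Onecut1: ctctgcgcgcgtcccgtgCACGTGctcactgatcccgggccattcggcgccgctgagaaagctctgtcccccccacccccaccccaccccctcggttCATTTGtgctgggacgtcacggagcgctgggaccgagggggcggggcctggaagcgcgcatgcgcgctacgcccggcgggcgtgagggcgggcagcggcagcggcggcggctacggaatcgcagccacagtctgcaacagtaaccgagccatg
Ptf1a: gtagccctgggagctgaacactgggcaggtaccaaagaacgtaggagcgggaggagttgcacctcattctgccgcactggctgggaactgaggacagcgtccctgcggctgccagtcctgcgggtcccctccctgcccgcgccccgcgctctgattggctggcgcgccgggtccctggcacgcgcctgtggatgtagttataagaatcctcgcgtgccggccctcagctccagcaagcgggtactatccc
The letters searched were TAAT for homeodomain factors, GATAA for GATA factors, TGTTTNC for forkhead factors, CANNTG for the E-box of bHLH factors, ATCNAT for Onecut factors and ACAANG for SOX factors. Among 32851 promoters of 250 bases, 54.9% held TAAT, 22.6% GATAA, 17.8% TGTTTNC, 66.2% CANNTG, 18.9% ATCNAT and 36.3% ACAANG. The Spp1 promoter held 6 matches of 5 kinds, and 4.18% of all promoters held 5 kinds or more. They were homeodomain letters at 2 places and E-box, forkhead, Onecut and SOX letters at 1 place each. The Foxa2 promoter held a homeodomain, an Onecut and a SOX match within a short stretch 213 to 225 bases upstream, where the homeodomain and Onecut letters overlap. The Onecut1 promoter held only CANNTG, at 2 places, and the Ptf1a promoter held none of the 6, as did 9.51% of all promoters. A match is a string of letters and not a bound site.

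Among the genes of ducts and trunk, Spp1 stood at 3444 CPM in the summed counts of Epcam+ cells (95% Poisson interval 3432 to 3456), 3733 on plate 8A and 3144 on plate 8B. The median cell had 2459 CPM, the highest 25488 CPM, and 77.8% of cells had a count (binomial interval 68.8 to 85.2%). Sox9 stood at 573 CPM (568.5 to 578.4), with a cell median of 465 and a highest cell at 2279 CPM, and was found in 88.9% of cells (81.4 to 94.1%). Nkx6-1 was found in the largest share of cells of all 9, 91.7% (84.8 to 96.1%), at a level of 105.2 CPM (103.1 to 107.3) and a cell median of 79.6 CPM. On plate 8A its share equalled that of Sox9, 93.2%, and on plate 8B the shares were 89.8 and 83.7%. Onecut1 stood at 115.4 CPM (113.2 to 117.6) and was found in 73.1% of cells (63.8 to 81.2%), with a cell median of 73.9 CPM. All 4 genes were thus found in most Epcam+ cells.

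Of the genes of the whole bud, Pdx1 stood at 116.9 CPM (114.7 to 119.1), with a cell median of 93.5 CPM, and was found in 76.9% of cells (67.7 to 84.4%). Foxa2 stood at 124.6 CPM (122.3 to 126.9), with a cell median of 88.7 CPM, and was found in 79.6% (70.8 to 86.8%). Mnx1 was seldom found, at 2.11 CPM (1.82 to 2.42) and in 11.1% of cells (5.87 to 18.6%), with no cell above 45.8 CPM. Of the genes of tips and acinar cells, Ptf1a was present in a minority of cells. It stood at 50.8 CPM (49.4 to 52.3) and was found in 38.9% of cells (29.7 to 48.7%), with a median of 91.5 CPM in the cells that had it and a highest cell at 373 CPM. No cell with Ptf1a was under 17.6 CPM. Gata4 stood at 20.5 CPM (19.6 to 21.5) and was found in 29.6% of cells (21.2 to 39.2%).

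Levels can be compared between genes only per length of transcript. In CPM per kilobase of exon, Epcam+ cells held 2090 for Spp1, 138.7 for Sox9, 54.2 for Pdx1, 52.6 for Foxa2, 33.7 for Ptf1a, 33.5 for Nkx6-1, 28.1 for Onecut1, 5.26 for Gata4 and 0.936 for Mnx1. The values of the plates overlap between the neighbours Pdx1 and Foxa2, at 41.7 to 66.2 and 45.6 to 59.3. Nkx6-1 (32.5 to 34.6) also overlaps both Ptf1a (33.6 to 33.8) and Onecut1 (23.3 to 32.6), so the order of these neighbours is not resolved, while Ptf1a lies above Onecut1 on both plates. Pdx1 and Foxa2 change places when the longest transcript is used as the length, with Foxa2 at 58.6.

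Gata4 differed between the 2 plates of Epcam+ cells far more than the other members. It stood at 37.3 CPM on plate 8A and 3.17 CPM on plate 8B, a ratio of 11.8, and was found in 42.4% and 14.3% of cells. Of 10560 genes at 10 CPM or more on a plate, 0.369% were at least as far apart as this, and 8.85% were at least 2-fold apart. The plates came close for Ptf1a, at 50.99 and 50.64 CPM, and for Nkx6-1, at 101.95 and 108.6 CPM. Pdx1 stood at 142.8 and 90.1 CPM, Sox9 at 681 and 462 CPM, Foxa2 at 140.5 and 108.15 CPM and Onecut1 at 134.3 and 95.8 CPM. What distinguishes the plates is not given in the labels.

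**Figure D1:**
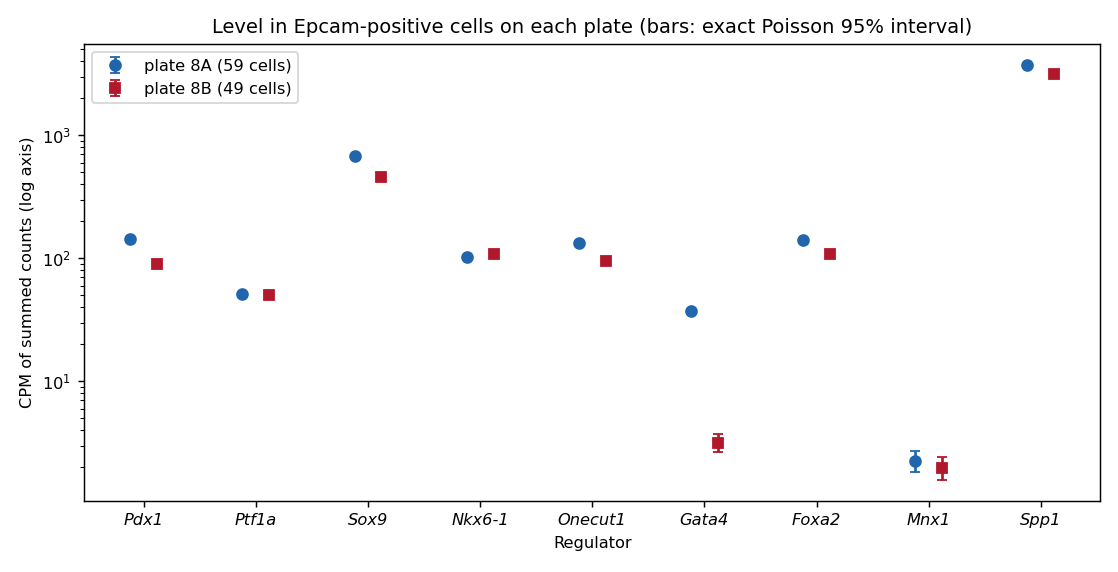
Level of each gene in the summed counts of Epcam+ cells (CPM, log axis) on plates 8A and 8B, with exact Poisson 95% intervals. The plates stand apart for Gata4, at 37.3 and 3.17 CPM, and lie within 2-fold for the other 8 genes.

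The mesenchyme of the 3 lines served as the background. A gene counted as higher or lower if it differed at least 2-fold on every pair of plates and reached 10 CPM in either group, which left out Mnx1. Within the Prox1-GFP line the pairs were matched, each plate with itself, and against the Cre lines they were all 4 pairs of plates. All 8 genes tested were higher in Epcam+ cells than in the mesenchyme of the same line, where 12.5% of 11014 genes tested were higher. They were also all higher than in Nkx2.5-Cre mesenchyme, where 11.9% of genes were higher, and in Nkx3.2-Cre mesenchyme, where 12.3% were. The median ratio over all genes tested was 1.01 in the first comparison and 1.02 in the other two. The depth was alike, with a median of 829432 counts in Epcam+ cells and 781594 in Prox1-GFP mesenchyme.

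Pdx1, Ptf1a, Foxa2 and Mnx1 had no count in any of the 75 mesenchymal cells of the Prox1-GFP line, which allows a share of up to 4.00% if 3 cells are taken as the limit of a count of 0, and up to 4.80% by the exact binomial interval. Against the level that 3 counts over the group would give (0.0525 CPM), Pdx1 was at least 2228-fold higher in Epcam+ cells, Foxa2 at least 2375-fold and Ptf1a at least 968-fold. Mnx1 was at least 40.1-fold higher. Spp1 had 8 counts in 8 of the 75 cells (0.140 CPM), a ratio of 24611 (12490 to 57007). Nkx6-1 had 12 counts in 11 cells (0.210 CPM), a ratio of 501 (287 to 970), and Onecut1 3 counts in 3 cells, a ratio of 2199 (752 to 10666). These are mostly single counts per cell, and whether they come from the cells themselves was not tested. They set the background for shares, since a count of Nkx6-1 was found in 14.7% of mesenchymal cells and of Spp1 in 10.7%, against 91.7% and 77.8% of Epcam+ cells.

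Sox9 was the exception among the 9, being clearly present in some mesenchymal cells of all 3 lines. It stood at 11.4 CPM in Prox1-GFP mesenchyme, with a count in 15 of 75 cells and up to 194 CPM. In Nkx3.2-Cre mesenchyme it stood at 11.2 CPM, in 42 cells (25.3%) and up to 272 CPM. In Nkx2.5-Cre mesenchyme it stood at 13.7 CPM, in 29 cells (17.2%) and up to 497 CPM. Sox9 is also known from cartilage and other mesoderm. Its ratio in Epcam+ cells was 50.4 (46.7 to 54.6) to the mesenchyme of the same line, 51.4 to that of Nkx3.2-Cre and 41.9 to that of Nkx2.5-Cre. Gata4 was at 0.122 CPM in Prox1-GFP mesenchyme, a ratio of 167.6 (81.2 to 418) that was 428 on plate 8A and 21.7 on plate 8B.

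To place the genes along the axis from tip to trunk, the 89 Epcam+ cells that were not endocrine-like, a class defined further on, were parted at their median of Cpa1, the carboxypeptidase that marks tips. This gave 45 Cpa1-high cells, from 277 to 14412 CPM, and 44 Cpa1-low cells, up to 266 CPM. The classes are ranges of 1 gene and not cell types, and cells lie on both sides close to the limit. Cpa1 was also found in mesenchyme, at 18.3 CPM in Prox1-GFP, 27.6 CPM in Nkx3.2-Cre and 13.3 CPM in Nkx2.5-Cre. Single mesenchymal cells of these lines reached 266, 733 and 505 CPM. Gata4 was higher in Cpa1-high cells, at 32.9 against 8.57 CPM, a ratio of 3.84 (3.39 to 4.37), where 1.94% of 10305 genes tested were higher. It was found in 44.4% and 11.4% of them. On plate 8A the levels were 59.7 and 15.2 CPM, but on plate 8B only 3.91 and 1.01 CPM, in 4 and 1 cells, and with plate 8B alone the gene falls under the limit of 10 CPM. Spp1 was lower in Cpa1-high cells, at 2148 against 6381 CPM, a ratio of 0.337 (0.334 to 0.339), where 4.07% of genes were lower. The median cell had 951 and 5306 CPM, and the plates gave ratios of 0.314 and 0.366.

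The other 6 genes tested did not pass the limit on both plates. Ptf1a stood at 91.03 CPM in Cpa1-high and 28.9 CPM in Cpa1-low cells, found in 73.3% and 20.5%. Its ratio of 3.14 (2.93 to 3.37) was made of 14.5 on plate 8A and 1.36 on plate 8B, where 6 of 19 Cpa1-low cells still had it. Nkx6-1 stood at 62.5 and 156.5 CPM, a ratio of 0.399 (0.381 to 0.419), with 0.255 on plate 8A and 0.607 on plate 8B and cell medians of 48.6 and 132.8 CPM. For both genes the ratio was farther from 1 on plate 8A than on plate 8B. Foxa2 stood at 115.7 and 73.6 CPM, Sox9 at 598 and 787 CPM, Pdx1 at 147.3 and 119.9 CPM and Onecut1 at 143.04 and 135.3 CPM. Mnx1, under the limit of 10 CPM, had counts in 8 Cpa1-high and 2 Cpa1-low cells. Markers of mesenchyme summed to 183.1 CPM in Cpa1-high and 420 CPM in Cpa1-low cells, and Neurog3, the endocrine progenitor factor, stood at 9.19 and 214 CPM, at 20 CPM or more in 5 and 12 cells. Their part in these differences was not tested, apart from the values without the 7 cells with mesenchymal markers. Without those cells, Nkx6-1 stood at 56.1 and 169.8 CPM and passed the limit on both plates.

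**Figure D2:**
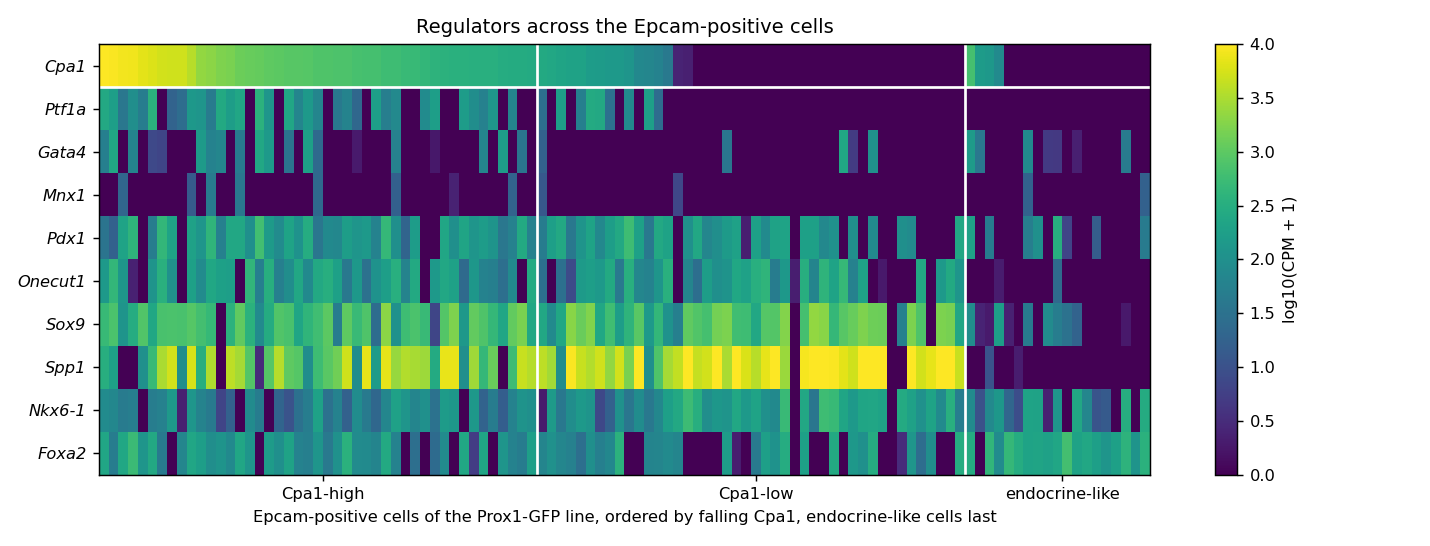
Level of Cpa1 and of each gene (log10(CPM + 1), colour) in the Epcam+ cells, 1 column per cell, ordered by falling Cpa1 with the 19 endocrine-like cells last. Ptf1a ends before Cpa1 does, with 0 of the 28 other cells without Cpa1 having it, Spp1 and Nkx6-1 run on to the cells without Cpa1, and in endocrine-like cells Foxa2 and Nkx6-1 are found in most cells while Spp1, Onecut1 and Ptf1a are found in at most 2.

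Ptf1a was found in no Epcam+ cell without a Cpa1 count. This split was chosen after the values were seen. Of the 89 cells, 61 had a Cpa1 count and 28 had none. Ptf1a was found in 42 of the 61 (68.9%, 55.7 to 80.1%) and in 0 of the 28, which allows a share of up to 10.7% by the limit of 3 cells and 12.3% by the binomial interval. All 42 cells with Ptf1a therefore had Cpa1, at no less than 58.1 CPM. On plate 8A the numbers were 19 of 31 and 0 of 19, and on plate 8B 23 of 30 and 0 of 9. The converse did not hold, since 19 of the 61 cells with Cpa1 had no Ptf1a count. In the 28 cells without Cpa1, Nkx6-1 stood at 188.4 CPM against 74.5 CPM in the 61, Sox9 at 937 against 587 CPM and Spp1 at 7431 against 2844 CPM. Pdx1 was found in 67.9% of the 28 (87.1 CPM) and 91.8% of the 61 (153.3 CPM), and Mnx1 in 0 and 10 cells. Neurog3 stood at 319 CPM in the 28 cells and 20.9 CPM in the 61.

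Endocrine-like cells were the 19 of the Epcam+ cells, 9 on plate 8A and 10 on plate 8B, with at least 3 of 8 endocrine genes (Neurog3, Neurod1, Chga, Chgb, Pax6, Fev, Insm1 and Gcg) at 20 CPM or more. None of the 9 genes was used in that rule, and 1 of 8 was higher and 5 of 8 were lower in endocrine-like than in the other 89 cells, where 12.7% of 11090 genes tested were higher and 16.5% lower. Foxa2 was higher, at 263 against 95.6 CPM, a ratio of 2.75 (2.65 to 2.86), with 2.59 and 3.18 on the plates. It was found in 94.7% and 76.4% of cells, with cell medians of 218 and 68.3 CPM. Spp1 was lower, at 0.697 against 4164 CPM, with a count in 2 of 19 endocrine-like cells. Over the alternatives its ratio to the other cells ran from 3.39e-05 to 0.210. Onecut1 was lower, at 0.887 against 139.4 CPM, again in 2 of 19 cells. Ptf1a had no count in any of the 19, against 61.5 CPM in the others, and was at most 0.00309 of their level by the 3-count floor. In Prox1-GFP mesenchyme, Spp1 stood at 0.140 CPM, in 8 of 75 cells, and Onecut1 at 0.0525 CPM, in 3. The levels in endocrine-like cells rest on 1 cell for each gene, at 9.59 and 23.4 CPM. The highest cells of that mesenchyme were at 1.58 CPM for Spp1 and 1.40 CPM for Onecut1. Without the 1 cell the levels were 0.0678 CPM for Spp1 and 0.0656 CPM for Onecut1. The remaining endocrine-like cells thus cannot be told from the mesenchyme for either gene.

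Sox9 and Pdx1 were lower but still present. Sox9 stood at 26.2 against 688 CPM, a ratio of 0.0380 that ran from 0.0299 to 0.111 over the alternatives. Pdx1 stood at 33.95 against 134.3 CPM, a ratio of 0.253 with 0.415 on plate 8A and 0.0986 on plate 8B. Pdx1 was found in 42.1% of endocrine-like cells and 84.3% of the others. Nkx6-1 did not pass the limit in either direction, at 95.2 against 107.3 CPM, with plate ratios of 0.617 and 1.09, and was found in 84.2% of endocrine-like cells. Gata4 stood at 16.7 against 21.3 CPM, with plate ratios of 0.820 and 2.22, and Mnx1 at 1.65 against 2.20 CPM. Among markers of liver, the list summed to 10504 CPM in endocrine-like cells against 615 CPM in the other 89, most of it Ttr at 9743 against 328 CPM, with Alb at 16.8 against 3.17 CPM. Ttr is also made by islet cells, and the part of this list in the differences was not tested.

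**Figure D3:**
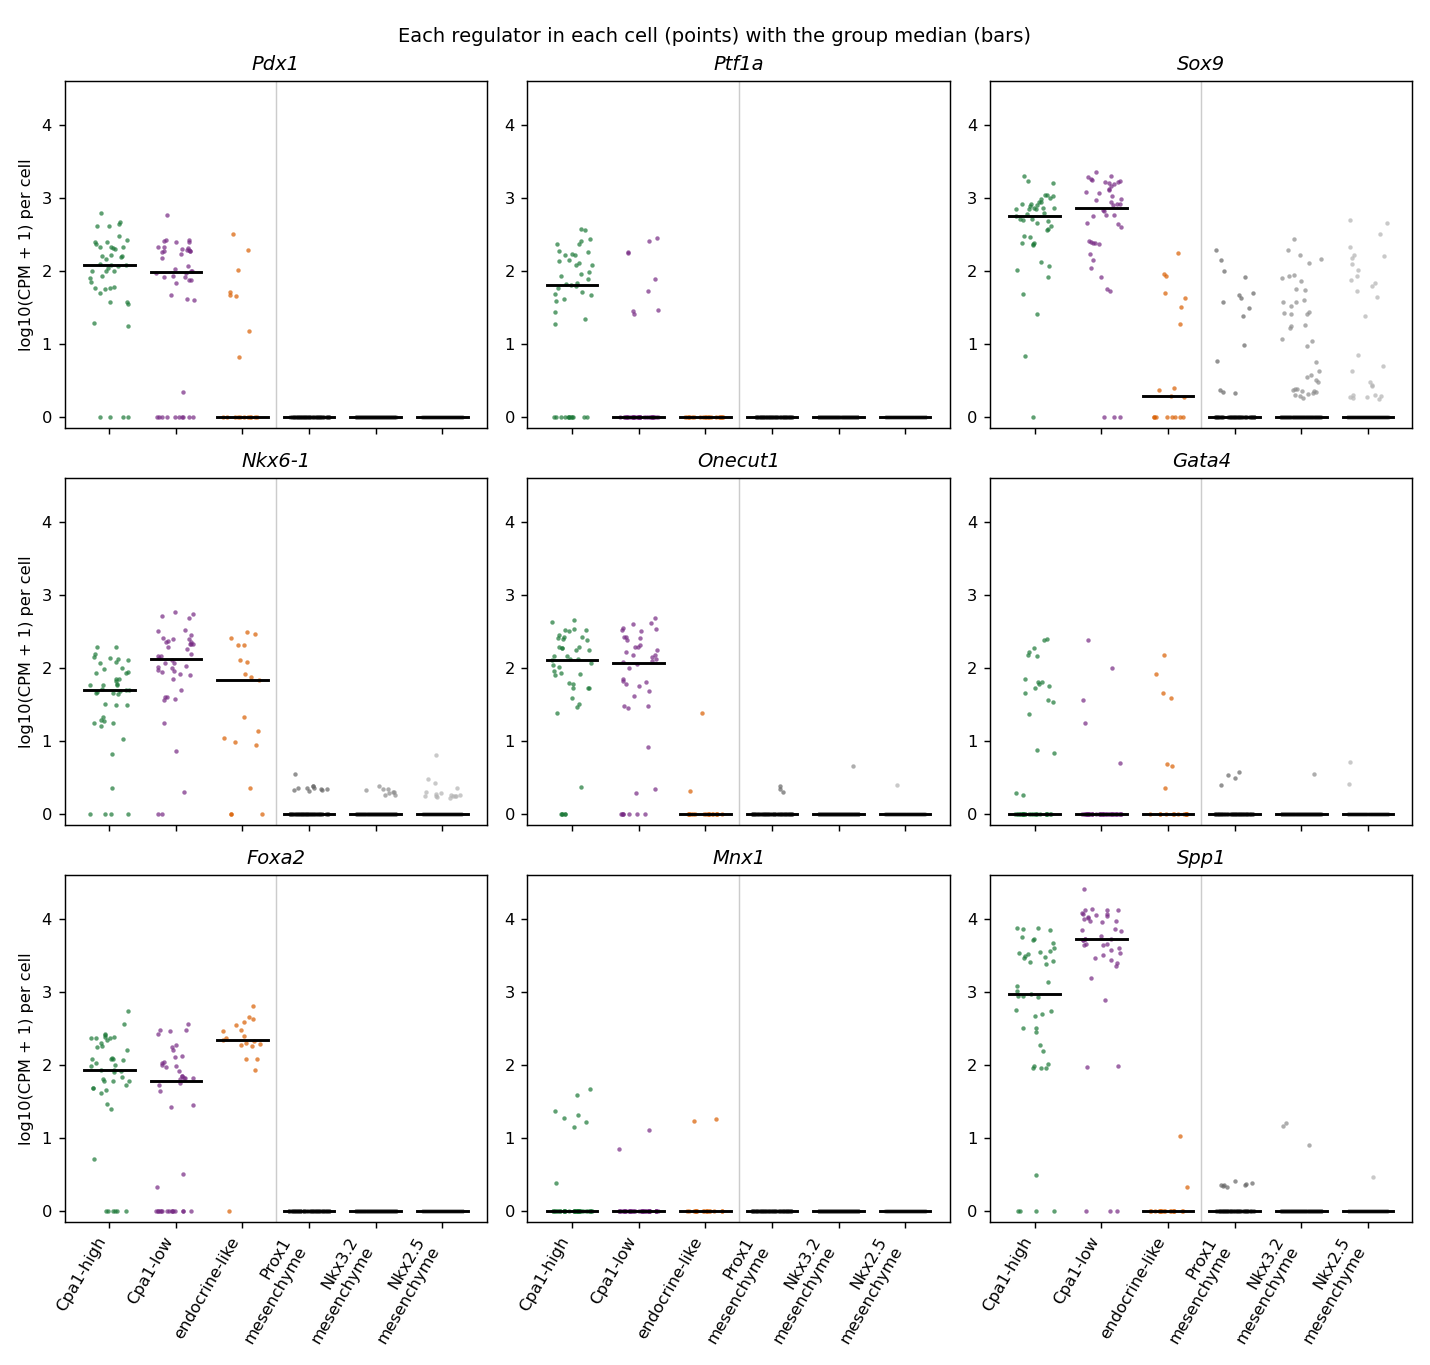
Level of each of the 9 genes in single cells (log10(CPM + 1)), 1 point per cell with the median of the class as a bar, for the 3 classes of Epcam+ cells and the mesenchyme of the 3 lines. Foxa2 has its highest median in endocrine-like cells (218 CPM) and Spp1 in Cpa1-low cells (5306 CPM), and among the 9 genes Sox9 alone goes above 100 CPM in mesenchymal cells, up to 497 CPM.

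In single cells the genes were found in many combinations. The median Epcam+ cell had counts of 6 of the 9 genes, 66 had 6 or more, 4 had all 9 and 1 had none. Of the 4 cells with all 9, 2 were among the 7 Epcam+ cells with mesenchymal markers, and no doublet caller was run. The median was 7 in Cpa1-high cells (4 to 9), 6 in Cpa1-low cells (0 to 9) and 3 in endocrine-like cells (1 to 6). Mesenchymal cells of all 3 lines had a median of 0 and at most 2 of the genes. Counts of 2 genes were found in 6 cells of the Prox1-GFP mesenchyme and in 3 of each Cre line, and 40 of the 75 Prox1-GFP cells had none. The only 2 Epcam+ cells outside the endocrine-like class with fewer than 2 of the genes both carried mesenchymal markers, with Col1a1 at 734 and 1297 CPM and no Cdh1 count.

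**Figure D4:**
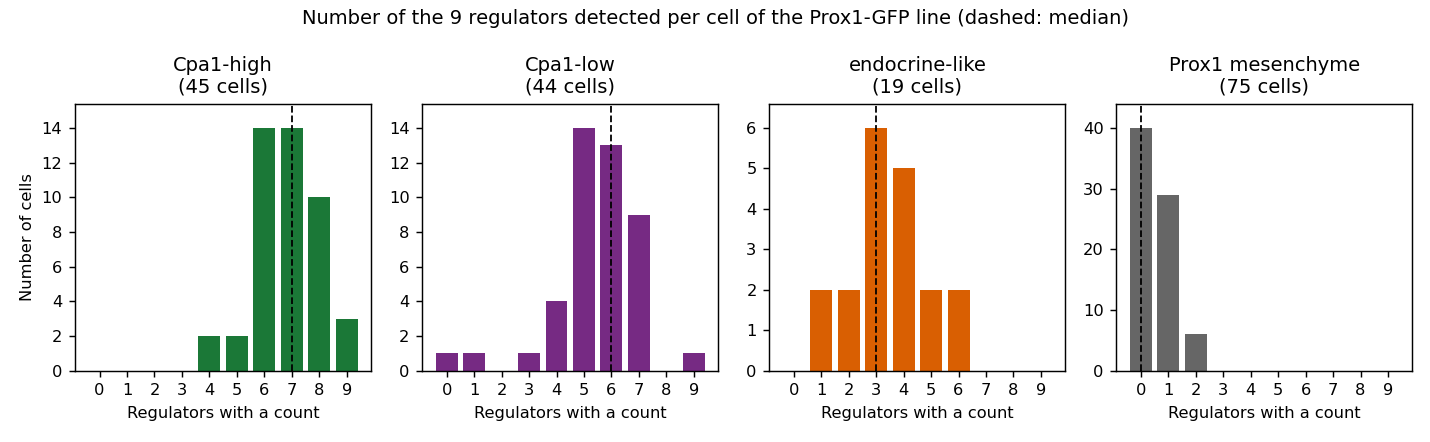
Number of cells of the Prox1-GFP line (bars) by the number of the 9 genes with a count, for each class, with the median dashed. Cpa1-high cells lie at 4 to 9 genes (median 7), endocrine-like cells at 1 to 6 (median 3) and mesenchymal cells at 0 to 2 (median 0).

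The 4 factors that define multipotent progenitors, Pdx1, Ptf1a, Sox9 and Nkx6-1, were found together in 34 Epcam+ cells (31.5%, 22.9 to 41.1%). This was 16 of 59 cells on plate 8A (27.1%) and 18 of 49 on plate 8B (36.7%), and 27.8% with every cell thinned to 100000 counts. Such shares depend on how often each gene is found by itself, and the sets of 3 and 4 were not set against that. They were together in 25 of 45 Cpa1-high cells (55.6%), 9 of 44 Cpa1-low cells (20.5%), 0 of 19 endocrine-like cells and 0 of 75 mesenchymal cells of the line. Without Ptf1a, the other 3 were found together in 75 Epcam+ cells (69.4%, 59.8 to 77.9%), with 82.2% of Cpa1-high and 77.3% of Cpa1-low cells. Ptf1a was thus the gene most often missing from the set in both classes. Ptf1a and Nkx6-1 shared 38 cells (35.2%), and 38 of the 42 cells with Ptf1a therefore also had Nkx6-1. Sox9 and Spp1 shared 82 cells (75.9%), against 5.26% of endocrine-like cells and 3 of 75 mesenchymal cells. By themselves, Sox9 was found in 88.9% and Spp1 in 77.8% of Epcam+ cells.

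Levels moved together for some pairs. Over all Epcam+ cells, 36 pairs were ranked by Spearman's rho of their CPM, as a description only, since all cells share 1 line and 2 plates. The rho of the members with depth ran from -0.21 to 0.25. Counting pairs at 0.30 or beyond on both plates, 4 were positive and 2 negative. The share of such pairs among other genes was not worked out, so whether these counts are unusual is not known. Sox9 and Spp1 had the highest rho, 0.74 (0.70 on plate 8A and 0.74 on plate 8B), and 0.60 without the endocrine-like cells. Nkx6-1 and Spp1 had 0.45 (0.54 and 0.36), and 0.56 without endocrine-like cells. Onecut1 had 0.43 with Spp1 and 0.40 with Sox9, but without endocrine-like cells these were 0.12 and 0.07, so both rested on that class, in which all 3 genes were lower.

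The negative pairs were Ptf1a with Nkx6-1 and Foxa2 with Spp1. Ptf1a and Nkx6-1 had -0.39 (-0.43 and -0.35), and -0.52 without the endocrine-like cells. Most cells with Ptf1a also had Nkx6-1, as did most Epcam+ cells. Foxa2 and Spp1, whose promoters are printed above, had -0.35 (-0.32 and -0.42), but -0.15 without endocrine-like cells. Ptf1a and Spp1 had -0.19 over all cells and -0.57 without endocrine-like cells (-0.65 and -0.41). Ptf1a and Gata4, the pair of tip factors, had 0.29 and 0.37, with 0.54 and 0.20 on the plates for the latter. With cells thinned to 100000 counts, Ptf1a and Nkx6-1 had -0.34 with -0.29 on plate 8B, and Foxa2 and Spp1 -0.32 with -0.27 on plate 8A, so neither kept 0.30 on both plates.

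**Figure D5:**
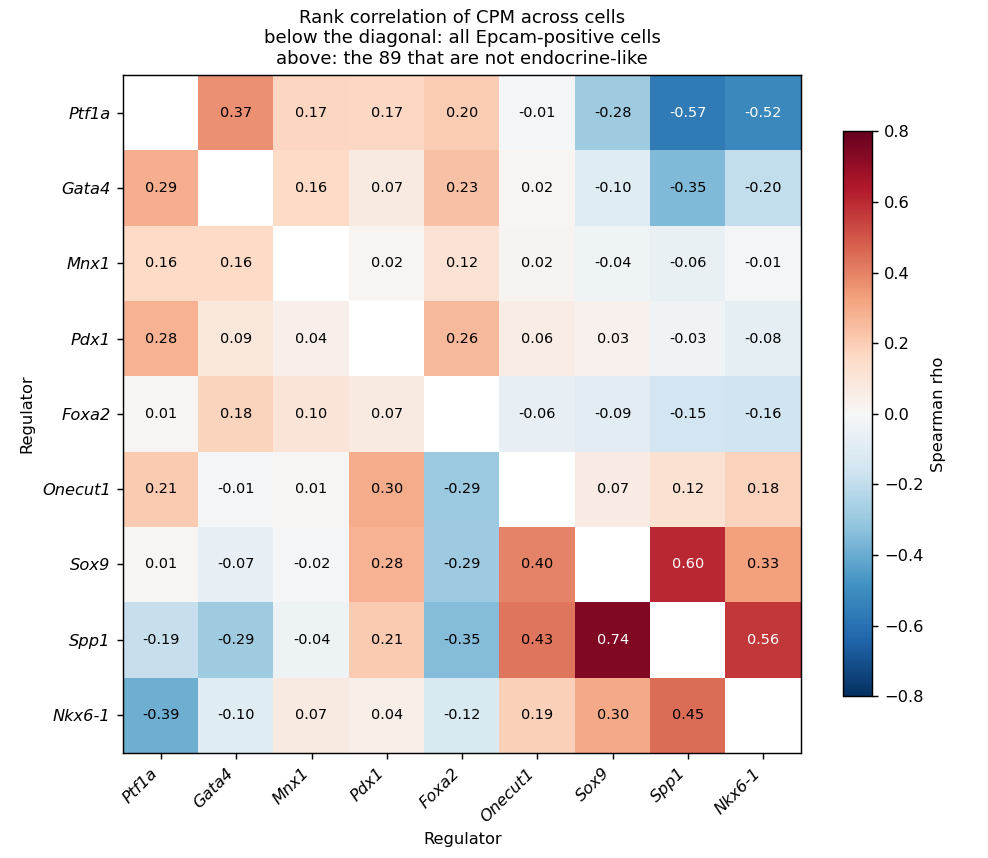
Spearman's rho between the levels of the 9 genes over all Epcam+ cells (below the diagonal) and over the 89 that are not endocrine-like (above it), as colour and number. Sox9 with Spp1 has the highest value (0.74 and 0.60), and Ptf1a with Nkx6-1 goes from -0.39 to -0.52 when endocrine-like cells are left out.

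Of 8896 genes found in at least 30% of Epcam+ cells, those most like each member were ranked by the lower of its rho on the plates, over 59 and 49 cells. Spp1 was most like Sox9, then Notch2 (0.70 and 0.70), a Notch receptor, and Adamts1 (0.71 and 0.70), a secreted protease. Sox9 was most like Spp1, then Adamts1 (0.70 and 0.79) and Habp2 (0.63 and 0.65). Ptf1a was most like Vtn (0.74 and 0.71), which codes for vitronectin, Myc (0.71 and 0.74), a proto-oncogene transcription factor, and P2rx1 (0.70 and 0.79), an ATP-gated channel. Each of these 3 members had a most alike gene with a rho of at least 0.70 on both plates.

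Nkx6-1 was most like Prox1 (0.51 and 0.52), the gene whose promoter drives the GFP of the sort, then Fxyd2 (0.65 and 0.46) and Pamr1 (0.48 and 0.37). Onecut1 was most like Cdc42ep1 (0.61 and 0.68), Tcf7l2 (0.58 and 0.55), a Wnt effector, and Gsta3 (0.60 and 0.55). Foxa2 was most like Tspan7 (0.42 and 0.49), Nkx2-2 (0.40 and 0.42), an endocrine homeodomain factor, and Gch1 (0.42 and 0.40). Pdx1 was most like Rpl30 (0.50 and 0.57), Phgdh (0.47 and 0.47) and Rnaseh2c (0.45 and 0.50). For Gata4 (Trmt13, Ddx55 and Tent5c) and Mnx1 (Rab11b and Fdxacb1 among others) the lower rho was 0.37 or less, which in sparse counts is no finding. These ranks are over all Epcam+ cells, endocrine-like cells included. In the 50 and 39 cells without that class, rho of Onecut1 was 0.43 and 0.59 with Cdc42ep1, 0.37 and 0.32 with Tcf7l2, and 0.43 and 0.33 with Gsta3. That of Foxa2 was 0.33 and 0.20 with Tspan7, 0.27 and 0.40 with Nkx2-2, and 0.31 and 0.01 with Gch1. That of Pdx1 was 0.47 and 0.37 with Rpl30, 0.43 and 0.28 with Phgdh, and 0.35 and 0.38 with Rnaseh2c. Those of Sox9 and Spp1 with their named genes lay between 0.43 and 0.63. Nkx6-1 with Prox1 was at 0.65 and 0.60, and Ptf1a with Vtn at 0.72 and 0.58.

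The 9 genes were set against 38 other genes of pancreatic epithelium, its tips, ducts and Notch, Hippo and Wnt effectors. Of the 31 tested against Prox1-GFP mesenchyme, 22 were higher in Epcam+ cells and 0 lower, where 12.5% of all genes tested were higher and 9.52% lower. The ratio of Krt8, a keratin of simple epithelia, was 30361 (8404 to 250700) over 2 mesenchymal counts. That of Cdh1, their cadherin, was 18316 (3287 to 723456), and that of Hhex, an endoderm homeodomain factor, was 3676 (659 to 145211), each over 1 mesenchymal count. Muc1, an apical mucin, and Neurog3 had no mesenchymal count and were at least 2432-fold and at least 2131-fold higher, so the order of these genes is not resolved. Against Nkx2.5-Cre mesenchyme 23 were higher and 2, Sox4 and Tead1, lower, where 11.9% of all genes were higher and 8.91% lower. Against Nkx3.2-Cre mesenchyme 23 were higher and 0 lower, where 12.3% and 9.96% were.

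Between Cpa1-high and Cpa1-low cells, 5 of 31 were higher, of which 1 was Cpa1 itself, and 4 were lower, against 1.94% and 4.07% of all genes tested. Those higher with Gata4 were the acinar factors Rbpjl, the partner of Ptf1a (177.8 against 46.3 CPM), and Bhlha15 (15.8 against 0.0278 CPM), with Onecut3 (17.5 against 2.03 CPM) and Myc (381 against 79.04 CPM). Bhlha15 was found in only 20% of Cpa1-high and 2.27% of Cpa1-low cells, so most cells of both classes had no count of it. Those lower with Spp1 were Dcdc2a (3.34 against 71.8 CPM), Glis3 (5.98 against 47.3 CPM), Isl1 (0.430 against 14.7 CPM) and Neurog3, which the endocrine rule had used.

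Between endocrine-like and other cells, 6 of 33 were higher and 14 lower, against 12.7% and 16.5% of all genes tested. Among those higher with Foxa2 were the endocrine factors Isl1 (1049 against 7.23 CPM) and Nkx2-2 (138.97 against 37.5 CPM), Onecut2 (16.97 against 0.477 CPM), the keratin Krt7 (568 against 132.97 CPM), and Pax6, which the rule had used. Onecut2 was found in 7 of the 19 endocrine-like cells, up to 116.5 CPM, and in 10 of the 89 others, so its cell median was 0 in both. The lowest with Spp1, Onecut1 and Ptf1a were Hhex (0.0633 against 77.7 CPM), Rbpjl (0.127 against 115.1 CPM), Myc (1.20 against 237 CPM), Onecut3 and Hes1, the Notch effector (4.05 against 228 CPM).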

How the data were processed

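Single GFP+ cells were profiled by Smart-seq2 with reads of 75 bases. The submitters' processing notes name Trim Galore 0.6.5. Per the methods, the authors quantified transcripts with kallisto on GRCm38 and summed them to genes with tximport. The deposited tables hold 1 estimated count per gene and cell, not normalized. Estimated counts were rounded to whole numbers. Without molecular identifiers, copies made by PCR enter the counts, and every interval covers counting error only. As in the methods, cells were kept with 1000 genes and 100000 counts or more, and with no more than 30% of counts from mitochondria, which left 549 of 576. No doublet caller was run.

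Levels are counts summed over a group and scaled to a total of 1000000 (CPM), with exact Poisson 95% intervals, and shares of cells have exact binomial 95% intervals (Python 3.11.15, scipy 1.17.1). The labels name no embryo, so each line was taken as 1 sample and no test was run. A gene was tested, in the sense of entering a count, at 10 CPM or more in either group, and called at a 2-fold ratio on every pair of plates. A level of 0 was set to the level of 3 counts over the group, which makes its ratio a bound. The comparison and the rank correlation were tested on simulated data. The 9 genes, the 38 other pathway genes and the marker lists were chosen with earlier results of these data known. Named genes were all 9, the 5 pathway genes with the largest ratios in each direction, and for each of the 9 the 3 genes most like it, and 2 genes that these rules name are not reported here. Gene names and positions are from GENCODE M21, and promoter bases from RefSeq (GRCm38.p6). Alternatives were the cut for Epcam, a stricter filter on cells, thinning to 100000 counts, leaving out a plate or the cells with mesenchymal markers, other scalings, folds and cuts for Cpa1, and other definitions of detection and correlation. The endocrine-like class was also set by 2 of its genes in place of 3.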

Additional observations from a re-analysis of the deposited data

Results flagged for a closer look

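Gata4 stood out in cells that the comparisons did not use. It reached 54.8 CPM in the 18 mesothelium-like cells of the Nkx3.2-Cre line, with a count in 5 of them, against 0.0134 CPM in the mesenchyme of that line. In the 7 Epcam+ cells of the same line it reached 50.6 CPM, from 2 cells at 178.05 and 228 CPM. Of these 7 cells, 4 carried the mesothelial genes Upk3b, Lrrn4 and Wt1, both cells with Gata4 among them, and none had a Cdh1 count.

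The 2 Prox1-GFP cells that were neither Epcam+ nor mesenchymal held Pdx1 at 156.5 CPM, Nkx6-1 at 221 CPM, Gata4 at 62.7 CPM, Foxa2 at 435 CPM and Mnx1 at 15.9 CPM, all above the mesenchyme. Nearly all of it came from 1 cell without an Epcam count, with Foxa2 at 753 CPM, Nkx6-1 at 383 CPM and Pdx1 at 271 CPM. That cell also held Chga at 2865 CPM, Neurod1 at 1842 CPM and Fev at 1791 CPM. The other cell was unlike it, with Prox1 at 12.5 CPM and no Cdh1, Krt8 or Chga count. The blood markers Ptprc (287 CPM over the 2 cells) and Tyrobp (1063 CPM) were each found in 1 of the 2.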

How the results depend on the processing

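The counts against mesenchyme (8 higher in each line) stayed within 1.5 times under every alternative run. The share of cells with all 4 progenitor factors ran from 27.1 to 36.7%, and the median number of genes per cell was 5 or 6. The Cpa1 comparison, the sizes of the ratios in endocrine-like over other cells, and the pairs moved. In endocrine-like over other cells, Spp1 ran from 3.39e-05 to 0.210 over 11 alternatives and Onecut1 from 0.000922 to 0.0123. Ptf1a ran from 0.00259 to 0.0283, Sox9 from 0.0299 to 0.111 and Pdx1 from 0.0986 to 0.415. Foxa2 ran from 2.57 to 3.18. The 2 calls of the Cpa1 comparison (1 higher and 1 lower) became 4 (2 and 2) with a limit of 1.5-fold, with Cpa1 cut at 100 CPM and with only the outer cells by Cpa1, and 0 (0 and 0) with a limit of 4-fold. Over all genes tested, 4.75% were then higher and 8.54% lower at 1.5-fold, 2.46% and 4.88% at the cut of 100 CPM, 3.96% and 6.75% in the outer cells, and 0.456% and 1.06% at 4-fold. Leaving out a plate gave 1 to 4 calls, 0 to 2 higher and 1 to 2 lower, against 6.37 to 10.3% higher and 12.6 to 12.97% lower over all genes. Without a filter on low genes 2 were higher (3.198% of all genes), Mnx1 being added, and without the cells with mesenchymal markers 2 were lower (4.05% of all genes). With Cpa1 cut at 100 CPM, Ptf1a was higher (91.03 against 8.68 CPM) and Nkx6-1 lower (62.8 against 186.7 CPM), and so they were with the outer cells (108.2 against 0 and 51.1 against 203 CPM) and on plate 8A alone (108.2 against 7.44 and 44.9 against 175.9 CPM). Without plate 8A, Gata4 lost its call because plate 8B is under 10 CPM. At 4-fold, 0 of the 8 genes tested of the 9 were higher in endocrine-like cells, where 6.53% of all genes were. For the counts of pairs, no share over pairs of other genes was worked out under any alternative. The 4 positive pairs became 6 to 9 on 1 plate alone and 8 by Pearson's r of log2(CPM + 1). The 2 negative pairs became 3 to 5 on 1 plate alone, 4 without the cells with mesenchymal markers, 0 with thinned cells and 0 by Pearson's r. The cause was not tested. Cutting Cpa1 at each plate's own median, chosen after seeing the data, gave the same cells. No called gene changed direction, but 4 uncalled ratios crossed 1. They were Onecut1 in Cpa1-high over Cpa1-low cells (0.834 to 1.52 over the alternatives), and, in endocrine-like over other cells, Gata4 (0.588 to 2.22), Nkx6-1 (0.617 to 1.12) and Mnx1 (0.418 to 1.29).

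No paired analysis was possible because no test was run, the labels naming no embryo for any cell; ratios within the Prox1-GFP line were taken plate by plate. With 1 sample per line, nothing here measures the spread between embryos. A single count was worth about 1.21 CPM in the median Epcam+ cell, so values near that in 1 cell cannot be told from background.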
